A study of Mus musculus with 2 samples.

Results

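The regions described here are ATAC-seq peaks at the starts of protein-coding genes in mouse embryonic stem cells (mESCs). A peak was taken when its summit, the base with the most overlapping fragments, was no more than 500 bp away from a protein-coding start on chromosomes 1 to 19. Starts with a protein-coding start on the opposite strand within 1000 bp were left out, because 1 peak there could belong to either gene. Of 20807 protein-coding starts on these chromosomes, 2321 were left out in this way and 18486 remained. The rule found 10089 peaks, of 113777 on chromosomes 1 to 19 and 116782 in all.

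The cells were EHMT2-dTAG mESCs of a C57BL/6J by 129S1 hybrid background. At both endogenous Ehmt2 alleles the stop codon had been replaced by the FKBP12F36V degron with HA tags, followed by P2A and an NLS-mCherry reporter. All samples received the solvent DMSO for 24 h, so EHMT2, the H3K9 dimethyltransferase, was present and no degrader was given. There were 2 samples of 50000 cells, each from an independent clone and with 3 technical replicates, grown in FBS and LIF on mitotically inactivated fibroblast feeders. The authors merged both clones before calling peaks, so there is 1 value per peak. No difference below has a replicate error, no test was made, and values are given as medians with quartiles.

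In ATAC-seq the transposase Tn5 cuts DNA that is not wrapped in nucleosomes, and the paired cuts mark accessible regions. Active gene starts keep a short nucleosome-depleted region upstream of the first nucleosome of the gene. In mammals most broadly used genes start in CpG islands, stretches rich in G, C and unmethylated CpG, while many tissue-restricted genes start in CpG-poor DNA. Factors such as SP and KLF proteins, NF-Y, NRF1, ETS proteins, CREB and ATF, YY1 and ZBTB33 bind short motifs near the starts of broadly used genes.

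The following stretches are shown because they come from the gene-start peaks of highest fold enrichment that hold each motif upstream of the start, for 9 of the 11 motifs searched. The stretches for YY1 and TATAAA are left out: 17.4% of YY1 letters lay upstream, and the TATAAA, at Gorab, was centred at −186.5 bp, outside the place of a TATA box. Each is the reference sequence of GRCm38 (mm10), 5′ to 3′ on the strand of the gene, with the motif in capitals and 35 bases on either side. They lie outside all annotated exons of protein-coding genes. The letters were searched on both strands within 100 bp of each summit, so that some appear as their reverse complement. The Actr3 stretch (chr1:125435863-125435941, minus strand) holds the NRF1 letters GCGCATGCG. The Zfp53 stretches (chr17:21488888-21488964 and chr17:21488918-21488993, plus strand) hold the ETS letters CTTCCGG and the NF-Y letters GCCAAT, both on the opposite strand, in 1 promoter. The Herc2 stretch (chr7:56050098-56050174, plus strand) holds the SP and KLF letters GGGCGGG and also an NF-Y match. The Ppp4r3b stretch (chr11:29172808-29172886, plus strand) holds the ZBTB33-type letters TCTCGCGAG and an ETS match. The Ift57 stretch (chr16:49699097-49699174, plus strand) holds the CREB and ATF letters TGACGTCA. The Hsd17b7 stretch (chr1:169969308-169969383, minus strand) holds the E-box CACGTG and an NF-Y match. The Exo1 stretch (chr1:175880473-175880551, plus strand) holds ACTACAANT, the letters searched for THAP11 and ZFP143, and an ETS match. The Zfp345 stretch (chr2:150485238-150485315, minus strand) holds the octamer ATGCAAAT, bound by POU factors, at a CpG-poor start.
Actr3, NRF1: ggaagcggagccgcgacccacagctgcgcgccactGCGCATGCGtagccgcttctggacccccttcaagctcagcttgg
Zfp53, ETS: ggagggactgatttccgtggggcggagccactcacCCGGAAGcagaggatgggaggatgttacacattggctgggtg
Zfp53, NF-Y: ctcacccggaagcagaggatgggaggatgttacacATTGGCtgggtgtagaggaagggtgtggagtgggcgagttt
Herc2, SP and KLF: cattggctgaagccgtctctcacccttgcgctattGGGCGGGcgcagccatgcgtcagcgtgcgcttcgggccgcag
Ppp4r3b, ZBTB33-type: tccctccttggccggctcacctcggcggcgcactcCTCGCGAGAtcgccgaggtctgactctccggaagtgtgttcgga
Ift57, CREB and ATF: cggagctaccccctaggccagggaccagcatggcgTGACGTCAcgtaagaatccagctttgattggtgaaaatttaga
Hsd17b7, E-box: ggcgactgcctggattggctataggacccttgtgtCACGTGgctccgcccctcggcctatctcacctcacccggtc
Exo1, THAP11 and ZFP143: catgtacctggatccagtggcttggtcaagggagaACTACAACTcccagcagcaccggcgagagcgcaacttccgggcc
Zfp345, octamer: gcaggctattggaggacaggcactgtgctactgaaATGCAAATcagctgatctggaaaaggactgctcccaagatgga

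The peaks that hold these stretches were among the most enriched gene-start peaks. The fold enrichment is the number of fragments over the summit plus 1, divided by the local background plus 1. It was 22.5 at Zfp53, 22.2 at Herc2, 21.9 at Zfp345 and 21.5 at Ift57. It was 21.1 at Hsd17b7, an enzyme of cholesterol synthesis, 19.5 at Actr3, a subunit of the ARP2/3 complex, and 19.3 at Exo1, a DNA repair exonuclease. The Ppp4r3b peak had 15.9.

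A peak summit lay within 500 bp of 10185 of the 18486 starts, which is 55.1%. A peak with a −log10 q-value of at least 10 lay at 7338 starts, which is 39.7%. These shares are the background for all counts of gene lists below. Of the peaks, 108 lay within 500 bp of more than 1 start on the same strand, and each was given to its nearest start. In all, 16 starts had 2 peaks and none had more. The peak itself spanned the start at 9622 of the 10089 peaks (95.4%).

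Peaks at gene starts were strong and wide compared with the other peaks of the same list. Their fold enrichment had a median of 8.30 (quartiles 5.78 and 11.3) and ranged from 2.10 to 24.5. The other 103688 peaks on chromosomes 1 to 19 had a median of 3.70 (quartiles 3.24 and 5.38), so the ratio of the medians was 2.25. The ratio depended on the many weak peaks away from starts: it was 1.138 among peaks with a −log10 q-value of at least 10 and 1.12 among peaks with at least 20 fragments. Since the list pools both clones, no replicate error can be given for this difference.

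The fragments behind a summit were few. They numbered 31 in the median (quartiles 18 and 52, range 6 to 266), over a local background of 2.84 (quartiles 1.92 and 4.16). The other peaks had a median of 8 fragments over a background of 1.28. Intervals given below for single peaks are exact 95% Poisson intervals of the fragment number, which cover counting error only.

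Gene-start peaks made up 8.87% of the peaks on chromosomes 1 to 19, but 58 of the 100 peaks of highest fold enrichment. Of the first 1000 they were 549 (54.9%), and of the first 10000 they were 3809 (38.1%). The fold enrichment exceeded the median of all these peaks, 3.95, at 90.8% of gene-start peaks and at 45.8% of the others. It exceeded the 99th percentile, 15.3, at 621 gene-start peaks (6.16%) and at 0.499% of the others.

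The median width of gene-start peaks was 1008 bp (quartiles 778 and 1280, range 200 to 3318), against 554 bp for the other peaks. At least 1000 bp were covered by 51.1% of gene-start peaks and by 13.9% of the others. From the start, the peaks reached 404 bp upstream in the median (quartiles 276 and 563) and 572 bp downstream (quartiles 389 and 804). Sequence that the reference marks as repeat made up 6.35% of a gene-start peak in the median and 16.02% of another peak.

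**Figure D1:**
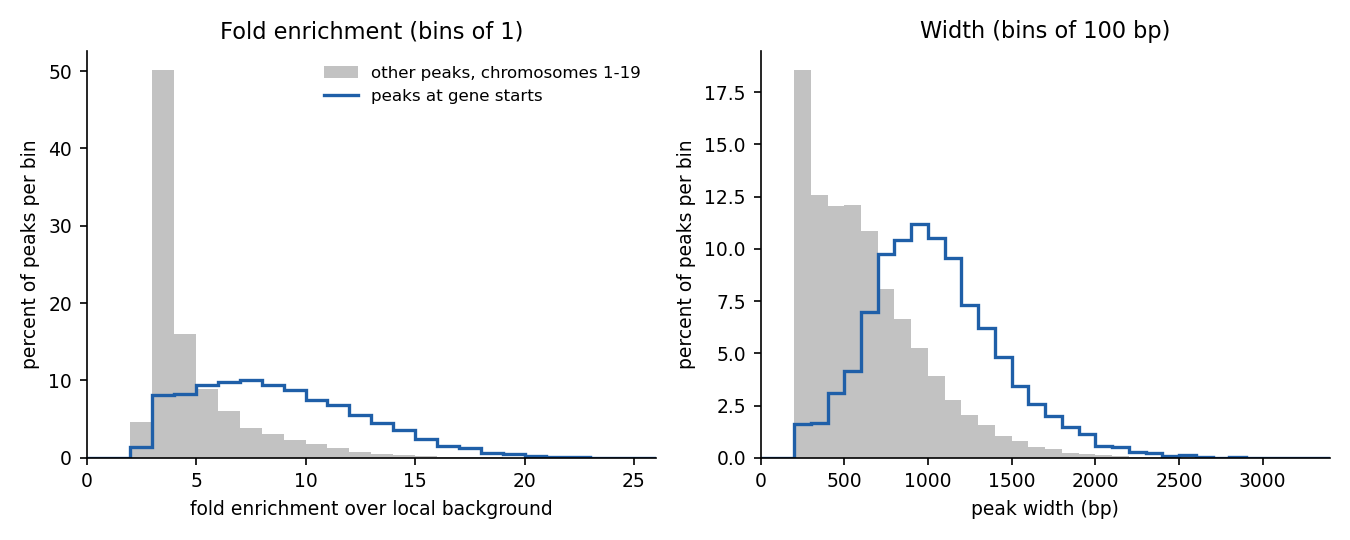
Percent of peaks in each bin of fold enrichment (left, bins of 1) and of width in bp (right, bins of 100 bp), for the 10089 peaks at gene starts (blue line) and the 103688 other peaks on chromosomes 1 to 19 (grey). Most other peaks sit near the low end, around their medians of 3.70 and 554 bp, while gene-start peaks spread around 8.30 and 1008 bp.

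The 2 kinds of peak most like these lay on either side of them. At starts that had been left out because of an opposite-strand start, 1070 peaks had a median fold enrichment of 10.1 (quartiles 7.60 and 12.9), a width of 1072 bp, 43 fragments and a GC content of 61.2%. At lincRNA gene starts, 859 peaks had a median fold enrichment of 4.80 (quartiles 3.57 and 7.17), a width of 712 bp, 13 fragments and a GC content of 51.2%. Gene-start peaks lay between them in all 4 measures.

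At the distance limit of the rule the values on both sides were close, while they differed more at the limit on opposite-strand starts. The 461 peaks with a summit 401 to 500 bp from a start had a median fold enrichment of 6.03 and a width of 1080 bp. The 365 peaks just outside, at 501 to 600 bp, had 5.79 and 1102 bp. Among peaks at starts whose nearest opposite-strand start lay 1001 to 1500 bp away, just inside the rule, the median fold enrichment was 6.98 and the width 920.5 bp (80 peaks). They were 8.55 and 1174 bp for the 189 peaks with such a start at 501 to 1000 bp, just outside.

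The highest fold enrichment was at Gorab, which encodes a golgin of the trans-Golgi (chr1:163403365-163404200, minus strand). This peak had 198 fragments (171 to 228) over a background of 7.12, a width of 836 bp and a summit 105 bp upstream of the start. Next came Cep97, a centriolar protein that restrains cilia, with a fold enrichment of 23.9 and 200 fragments (173 to 230). Its summit lay 189 bp downstream, in an intron (chr16:55933839-55935085). Rpp40, a subunit of ribonuclease P, had 23.7 with 114 fragments (94.0 to 137).

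Sucla2, a succinate-CoA ligase of the citric acid cycle, had 22.7 with 119 fragments (98.6 to 142) and a summit 262 bp upstream. The zinc finger genes Zfp868 and Zfp53 had 22.5 each, with 185 fragments (159 to 214) and 121 fragments (100.4 to 145). The intervals are of the fragment number and not of the fold enrichment, so they do not resolve the order of these 10 peaks. The remaining 4 were Gm49342, Ccdc181, Ccdc191 and Alkbh7, a mitochondrial protein of the AlkB family, between 22.3 and 22.4. These 10 peaks were not the most GC-rich: their GC content ran from 53.5% to 59.6%, below the median of all gene-start peaks, 60.4%. Of the 10, 7 were at starts of intermediate CpG content and 3 at CpG-rich starts.

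Of the 5 widest peaks, 4 had a fold enrichment below the median of gene-start peaks. Arid1b, a subunit of BAF chromatin remodelling complexes, had the widest, 3318 bp, with a fold enrichment of 4.35 and 23 fragments (14.6 to 34.5) at chr17:4993939-4997256. Hivep2, a zinc finger transcription factor, followed with 3205 bp and 5.33. Tmem132e, a membrane protein, had 3195 bp and 3.91. Irf2, a transcription factor of the interferon response, had 2900 bp and 5.88. Zmym2, a MYM-type zinc finger gene, had 2866 bp and 10.03. All 5 were CpG-rich starts, with a GC content from 61.4% to 70.2%.

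The most fragments lay over 2610044O15Rik8, with 266 (235 to 299.96) over a background of 12.1, at a CpG-poor start. Msmo1, an enzyme of cholesterol synthesis, had 253 (223 to 286), Evi5l 242 (212 to 274), Asah1, the lysosomal acid ceramidase, 228 (199 to 260) and Fam160a2 226 (197 to 257). All but Fam160a2 lie on chromosome 8. Gene-start peaks on chromosome 8 had a median of 45 fragments over a background of 4.28, while the medians of the other 18 chromosomes ran from 24 to 38 fragments and from 2.32 to 3.30. Their fold enrichment, 8.87, lay within the range of the others, 7.32 to 9.24. Without chromosome 8, the median fragment number of all gene-start peaks was 30.

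The lowest fold enrichment was at Junb, an AP-1 transcription factor: 2.10, from 25 fragments (16.2 to 36.9) over a background of 11.4. Sox2 followed with 2.17, from 17 fragments (9.90 to 27.2) over 7.28, then BC107364 with 2.25 and Gdf3, a TGF-beta family ligand of pluripotent cells, with 2.36. Their backgrounds, 6.2 to 11.4, were all above the upper quartile of gene-start peaks, 4.16. This followed from how they were chosen. At the lowest background, 1.16, the fewest fragments of any gene-start peak, 6, already gave a fold enrichment of 3.24. Lower values could be called only over a higher background. Each had at least 1 other peak within 5 kb of the start, with up to 67 fragments at Gdf3 and 42 at Sox2. How often other gene-start peaks had such a neighbour was not counted.

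Summits clustered on either side of the start. In bins of 25 bp they were most frequent 150 to 126 bp and 125 to 101 bp upstream, with 614 summits each, and 50 to 74 bp downstream, with 746. Between these maxima the number fell to 379 summits at 50 to 26 bp upstream. The median position was 26 bp downstream of the start (quartiles −113 and 122), between both maxima. Measured from the nearest protein_coding transcript start of the same gene, the median position was −11 bp (10060 of these peaks). Upstream lay 4500 summits (44.6%), downstream 5570 (55.2%) and at the start 19.

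A maximum on either side of the start also appeared when the peaks were divided by fold enrichment, width or number of transcript starts. Among the 3361 peaks of genes with a single annotated protein_coding transcript start, the maxima lay at 125 to 101 bp upstream (204 summits) and 50 to 74 bp downstream (273), with 120 summits per bin between them. In the 25% of peaks with the highest fold enrichment they held 172 and 216 summits, with 117 between, and in the lowest 25% they held 127 and 156, with 70 between. The narrowest 25% of peaks had them at the same bins as all peaks (145 and 206 summits, 94 between), and so did the widest 25% (153 and 157, 86 between).

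The sides were used differently by CpG class. A start was called CpG-rich when the 500 bp around it had a CpG observed-to-expected ratio of at least 0.6 and a GC content of at least 55%, and CpG-poor when the ratio was below 0.4. At CpG-rich starts 49.3% of summits lay upstream, and the upstream maximum (493 summits) was nearly as high as the downstream one (537). At starts of intermediate CpG content 30.6% lay upstream, with 88 summits in the upstream and 148 in the downstream maximum. At CpG-poor starts 40.4% lay upstream, the downstream maximum lay at 0 to 24 bp, and summits were more scattered: 61.4% lay within 200 bp of the start, against 79.7% at CpG-rich starts.

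**Figure D2:**
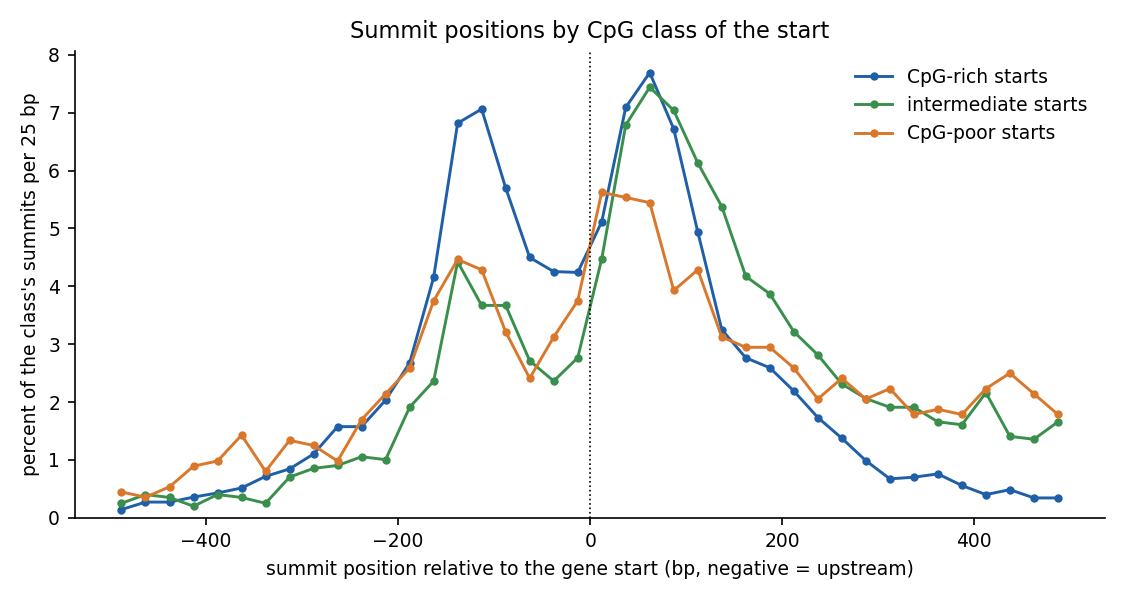
Percent of summits in bins of 25 bp against the position relative to the gene start in bp (negative upstream), for the 6980 peaks at CpG-rich, 1989 at intermediate and 1120 at CpG-poor starts. Each class has a maximum upstream and one downstream with a dip between them, and the upstream maximum is nearly as high as the downstream one only at CpG-rich starts.

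By annotation, 4500 summits lay upstream of the gene, 3527 (34.96%) in an untranslated exon, 968 (9.59%) in a coding exon, 898 (8.90%) in an intron and 195 in another exon, and 1 lay beyond the end of its gene. Peaks with the summit upstream had a median fold enrichment of 8.68 and 36 fragments. Those with it downstream had 8.02 and 28. Summits in coding exons and introns had lower medians than those in untranslated exons (8.37), 7.27 and 7.05, and the 1 peak beyond the gene end had 3.15.

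CpG content went with whether a start had a peak. Of 7739 CpG-rich starts, 7043 had one (91.0%), of 2922 intermediate starts 2013 (68.9%), and of 7825 CpG-poor starts 1129 (14.4%). A peak with a −log10 q-value of at least 10 was found at 73.9%, 43.6% and 4.40% of these starts. CpG-rich starts thus held 69.2% of gene-start peaks.

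Where there was a peak, it was also stronger and wider at CpG-rich starts. The median fold enrichment was 9.07 (quartiles 6.67 and 11.9) at CpG-rich, 7.38 (5.08 and 10.4) at intermediate and 4.82 (3.67 and 7.03) at CpG-poor starts. The widths were 1065, 920 and 728.5 bp, and the fragments 36, 25 and 13. The ratio of the CpG-rich to the CpG-poor median was 1.88. It was 1.18 among peaks with a −log10 q-value of at least 10, and 1.18 among those with at least 20 fragments, since the weak peaks that these limits remove were more frequent at CpG-poor starts.

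GC content as such had no steady relation with fold enrichment. The GC content of gene-start peaks had a median of 60.4% (quartiles 56.1 and 64.4), against 48.9% for other peaks, and rose to 65.2% within 100 bp of the summit. The median fold enrichment rose from 4.27 at 40 to 45% GC (85 peaks) to 8.74 at 60 to 65% (3064 peaks). It fell again to 7.42 at 70 to 75% (461 peaks) and 4.92 at 75 to 80% (46 peaks). Over the 10089 peaks, Spearman's rho between fold enrichment and GC content was 0.045 and Pearson's r 0.032. All peaks come from 1 pool of fragments, so these are descriptions across peaks. The sign of rho turned to −0.11 among peaks with a −log10 q-value of at least 10 and to −0.13 among those with at least 20 fragments.

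The CpG observed-to-expected ratio of the peak followed fold enrichment more closely, with a rho of 0.27 and r of 0.28. The median fold enrichment was 3.70 below a ratio of 0.2 (270 peaks), 5.29 from 0.2 to 0.4, 7.53 from 0.4 to 0.6 and 8.86 from 0.6 to 0.8. It was 9.21 from 0.8 to 1.0 (2789 peaks) and 8.90 from 1.0 to 1.2 (176 peaks), so it levelled off.

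**Figure D3:**
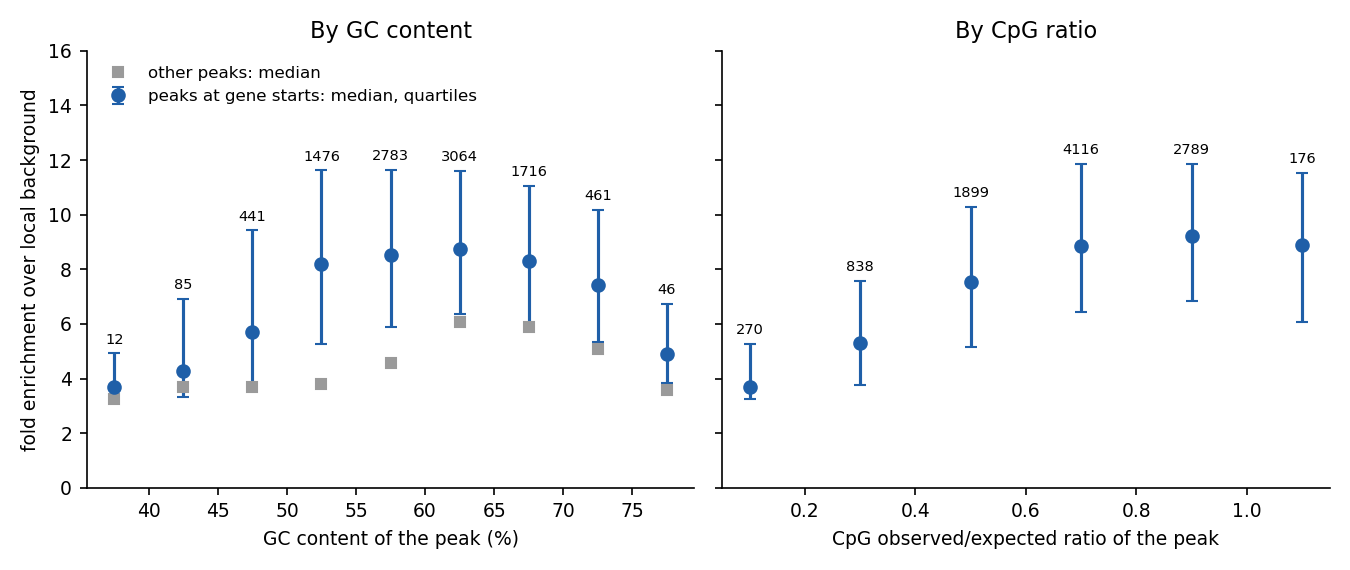
Fold enrichment of gene-start peaks against the GC content of the peak in bins of 5% (left) and its CpG observed-to-expected ratio in bins of 0.2 (right), as median (point) and quartiles (bars), with the number of peaks above each bar; grey squares are medians of other peaks. The medians rise to 8.74 at 60 to 65% GC and fall to 4.92 at 75 to 80%, while they level off near 9 with the CpG ratio.

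A TATA box, TATAAA on the strand of the gene 40 to 20 bp upstream of the start, was present at 511 starts. Of these 116 had a peak (22.7%), against 56.0% of starts without one. TATA starts were mostly CpG-poor (388 of 511). Among CpG-rich starts alone the shares were 81.9% (59 of 72) and 91.1%, and the median fold enrichments of their peaks 7.10 and 9.09. The summit at CpG-rich TATA starts lay 69 bp upstream in the median.

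Motifs of promoter-binding factors were more frequent at gene-start summits than at other summits, with 3 exceptions. Within 100 bp of the summit, the SP and KLF letters occurred at 3621 gene-start peaks (35.9%) and 6.14% of other peaks. The NF-Y letters occurred at 12.7% and 7.16%, the ETS letters at 10.1% and 2.80%, and the E-box at 6.18% and 3.20%. The rarer CREB and ATF letters occurred at 1.96% and 0.268%, NRF1 at 1.73% and 0.136%, those of THAP11 and ZFP143 at 1.31% and 0.432%, and the ZBTB33-type letters at 0.773% and 0.0309%.

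The exceptions were the octamer (0.862% and 2.36%), TATAAA at any place in the window (2.64% and 8.23%) and the YY1 letters AAGATGGCG (1.66% and 2.49%). Gene-start windows are richer in GC, which changes how often any letters occur. Among peaks of 55 to 65% GC, the SP and KLF letters were at 37.0% of 5847 gene-start peaks and 17.5% of 16731 others. NRF1 was at 1.88% and 0.347% of these peaks, ETS at 11.5% and 8.10%, NF-Y at 13.1% and 5.68%, the octamer at 0.718% and 0.592% and TATAAA at 2.17% and 1.67%. In this range the octamer and TATAAA were thus no longer exceptions. The YY1 letters were at 1.71% and 9.58%.

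Gene-start peaks with a motif had higher fold enrichment than those without it for all factors searched except TATAAA. The medians with and without were 10.4 and 8.27 for THAP11 and ZFP143, 10.3 and 8.28 for ZBTB33, 10.2 and 8.04 for NF-Y, 10.1 and 8.27 for NRF1 and 9.96 and 8.13 for ETS. They were closer for the SP and KLF letters (9.04 and 7.86) and the E-box (8.75 and 8.27). For TATAAA they were 6.93 and 8.33. At CpG-rich starts alone the NF-Y medians were 10.99 and 8.79, and the ETS medians 10.3 and 8.92. The E-box medians there were 9.16 and 9.06.

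Enrichment also went with the number of kinds of motif, counting NRF1, ETS, NF-Y, SP and KLF, CREB and ATF, ZBTB33, YY1, and THAP11 and ZFP143. The 4785 peaks with none had a median fold enrichment of 7.29 (quartiles 4.97 and 10.1), the 4047 with 1 kind 8.83, the 1149 with 2 kinds 10.3 and the 104 with 3 kinds 11.2 (8.77 and 13.6). The 4 peaks with 4 kinds had a median of 5.66. The GC content of the peaks was 59.1%, 61.4%, 61.5% and 61.5% from none to 3 kinds. CpG class was not held fixed in this count, though motif shares differed by class. The SP and KLF letters, for example, were at 42.8% of peaks at CpG-rich and 13.7% of those at CpG-poor starts.

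The motifs had their own places relative to the start. Each position is that of the match nearest the summit and within 100 bp of it, so it is not independent of where summits lay. YY1 letters lay downstream: the median was 34 bp downstream (quartiles 16 and 86.5), 17.4% of them lay upstream, and 136 of 167 (81.4%) read on the strand of the gene. The letters of THAP11 and ZFP143 lay 68 bp upstream (quartiles −126 and −22.5), and those of NF-Y 61 bp upstream (−118.5 and −3.5), with no strand preferred by NF-Y (48.5% on the strand of the gene). The SP and KLF letters lay 29 bp upstream, NRF1 32 bp and CREB and ATF 26 bp upstream, while ETS letters were centred on the start (2 bp downstream, quartiles −59 and 64.75).

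Summits moved with the motifs, which lay within 100 bp of them by construction. Peaks with the NF-Y letters had their summit 63 bp upstream in the median, and 65.7% upstream, against 41.5% of peaks without them. Those with the letters of THAP11 and ZFP143 had it upstream in 72.0%, and those with YY1 letters in 22.2%.

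**Figure D4:**
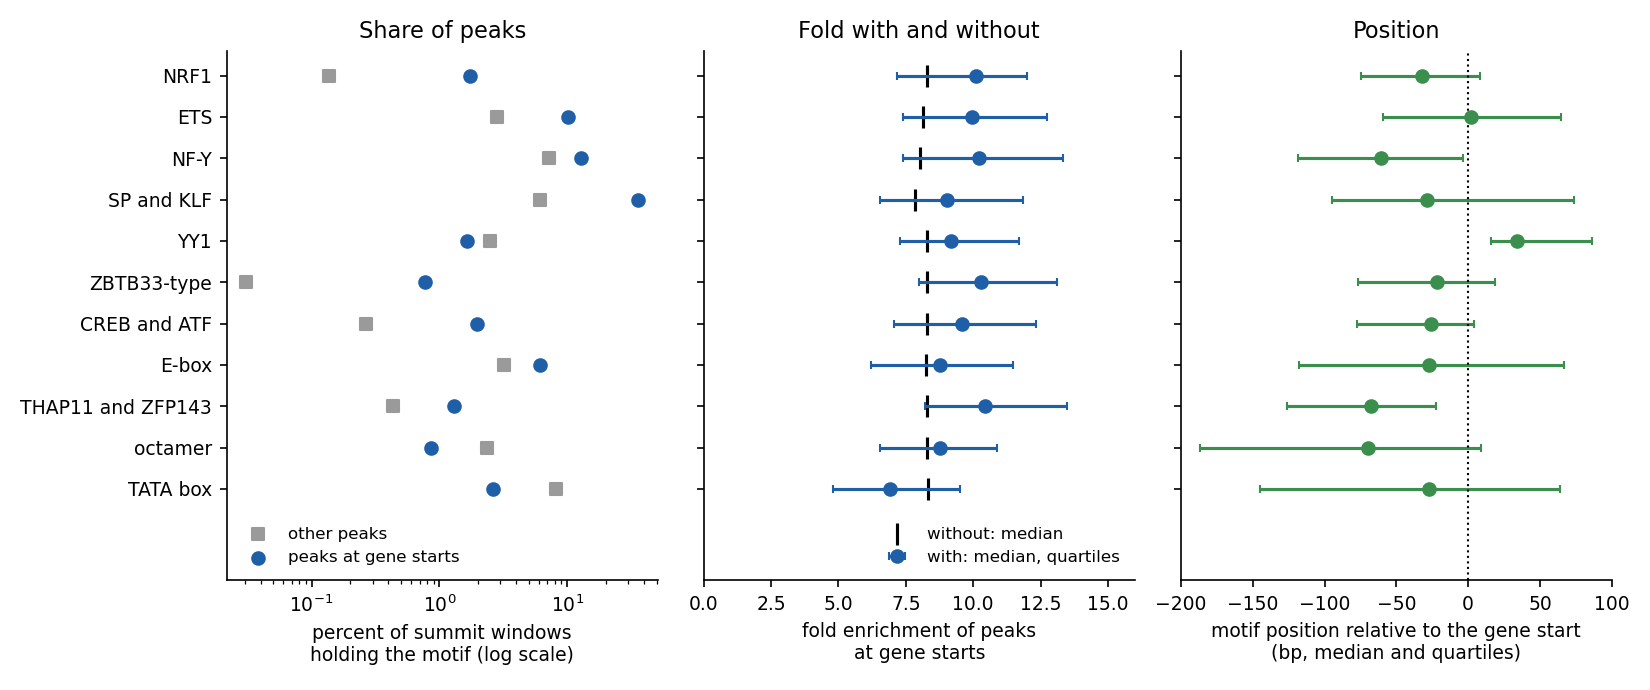
For each motif, the percent of windows within 100 bp of a summit that hold it (left, log scale; blue gene-start peaks, grey other peaks), the fold enrichment of gene-start peaks with it (middle, median and quartiles; black tick, median without it) and its position relative to the gene start in bp (right, median and quartiles). YY1 letters lie downstream of the start and those of NF-Y, THAP11 and ZFP143 upstream, and only TATAAA has a lower median with than without, 6.93 against 8.33.

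Genes of basic cell functions had a peak at the start more often than genes in general, from 77.3% of starts in the list of Mediator subunits to 100% in that of replication licensing proteins. These lists were also richer in CpG-rich starts, with 57.7% to 84.6% against 41.9% of all starts. All 13 starts of replication licensing proteins, which load and activate the replicative helicase, had one, with a median fold enrichment of 14.2 (quartiles 11.1 and 15.7) and 71 fragments. Mcm3, a helicase subunit, had 16.9 with 85 fragments (67.9 to 105), and the GINS subunits Gins3 and Gins4 had 16.5 and 16.3. The lowest was Mcm2 with 5.80. Over all starts with a peak the median fold enrichment was 8.33.

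Peaks were found at 40 of 43 starts of translation initiation factor genes (93.0%), 25 of 27 of aminoacyl-tRNA synthetases (92.6%), 58 of 63 of cytosolic ribosomal proteins (92.1%) and 26 of 29 of proteasome subunits (89.7%). The proteasome subunits had a median fold enrichment of 10.7, led by Psmc3, an ATPase of the regulatory particle, with 18.5. The synthetases had 10.2, led by Nars2, the mitochondrial asparaginyl-tRNA synthetase, with 17.7. The lowest of these, Mars, the methionyl-tRNA synthetase, still had 6.64. Of the initiation factor list, the eIF2 kinases Eif2ak3 and Eif2ak4 had the highest values, 17.9 and 17.8. These kinases are not initiation factors themselves but are counted in the list.

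Cytosolic ribosomal protein genes were not among the strongest. Their median fold enrichment was 7.90 (quartiles 6.62 and 10.03) and their peaks were narrow, 837.5 bp in the median against 1008 bp for all starts with a peak. Rpl34 had the highest value, 16.03, and Rpl36 the lowest, 2.67, with 24 fragments (15.4 to 35.7) over a background of 8.36. Mitochondrial ribosomal protein genes had a peak at 39 of 45 starts with a median of 8.72, and Mrps14 reached 20.02. Nuclear genes of the respiratory chain had one at 43 of 52 (82.7%) with a median of 9.54. Among these, Ndufa12, a complex I subunit, had 20.7 and Atp5b, the ATP synthase beta subunit, 16.2.

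Splicing factor genes had a peak at 18 of 23 starts (78.3%) and a median of 8.56, with Snrpb2 at 15.4 and the SF3B subunit Sf3b1 at 12.3. Mediator subunit genes had one at 17 of 22 (77.3%) with a median of 9.95, led by Med30 and Med23 with 18.5 each. Heat shock and DnaJ genes had one at 45 of 51 with a median of 9.37, led by Dnajc13 with 17.0.

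The Zfp zinc finger genes, many of them repressors of retroelements, had a peak at 276 of 352 starts (78.4%). Of the 352 starts, 160 (45.5%) were CpG-rich, against 41.9% of all starts. A further 73 were CpG-poor, against 7825 of all 18486 starts. Their median fold enrichment was 9.55 (quartiles 7.40 and 12.6), with Zfp868 and Zfp53 named above and Zfp97 at 22.0, and their GC content was 55.9%. The lowest was Zfp503 with 2.66. Members of this family share sequence, and reads with several equally good places were put at 1 of them at random, so single values are uncertain.

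Developmental transcription factors had weak, wide peaks, also at CpG-rich starts. Of 160 starts of Hox, Fox, Pax, Gata, Lhx, Nkx, Tbx, Irx, Dlx and Sox genes, 97 were CpG-rich (60.6%) and 93 had a peak (58.1%). The median fold enrichment was 4.92 (quartiles 3.87 and 6.80), with a width of 1154 bp and a GC content of 63.5%. At the 72 CpG-rich starts with a peak the median was 4.99, against 9.07 over all CpG-rich starts with a peak. A further 25 CpG-rich starts of the list had no peak. Foxn3, a forkhead factor, had 11.8, Hoxc13 11.3 and Sox17, an endoderm factor, the lowest value, 2.86. Genes of Wnt ligands and Frizzled receptors had a peak at 20 of 28 starts, with a median of 6.38 and a width of 1280 bp. The receptor Fzd1 had 10.96 and the ligand Wnt5a 2.79.

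Families used in specialised tissues had few peaks, and most of their starts were CpG-poor, a class with a peak at 14.4% of starts. Olfactory receptors had one at 21 of 1086 starts (1.93%) and vomeronasal receptors at 3 of 325 (0.923%), with medians of 3.24 and 3.70, and 1077 and 324 of these starts were CpG-poor. Of the olfactory receptor peaks 1 had a −log10 q-value of at least 10, at Olfr658, with a fold enrichment of 12 from 41 fragments (29.4 to 55.6). Keratins had a peak at 8 of 49 starts (16.3%, with 32 CpG-poor), led by Krt18, a keratin of simple epithelia, with 6.51. Beta-defensins had one at 6 of 42 (14.3%, with 40 CpG-poor), near the share of all CpG-poor starts. Chemokines and interleukins had one at 14 of 59 (23.7%, with 51 CpG-poor), led by Cxcl1 with 10.3, and cytochromes P450 at 22 of 92 (23.9%, with 77 CpG-poor), above that share. The P450 genes with the highest values were CpG-rich: Cyp20a1 with 17.8, Cyp2r1, a vitamin D 25-hydroxylase, with 12.8, and Cyp46a1, the cholesterol 24-hydroxylase, with 12.4. Solute carriers had a peak at 193 of 319 starts (60.5%), near the share over all starts.

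**Figure D5:**
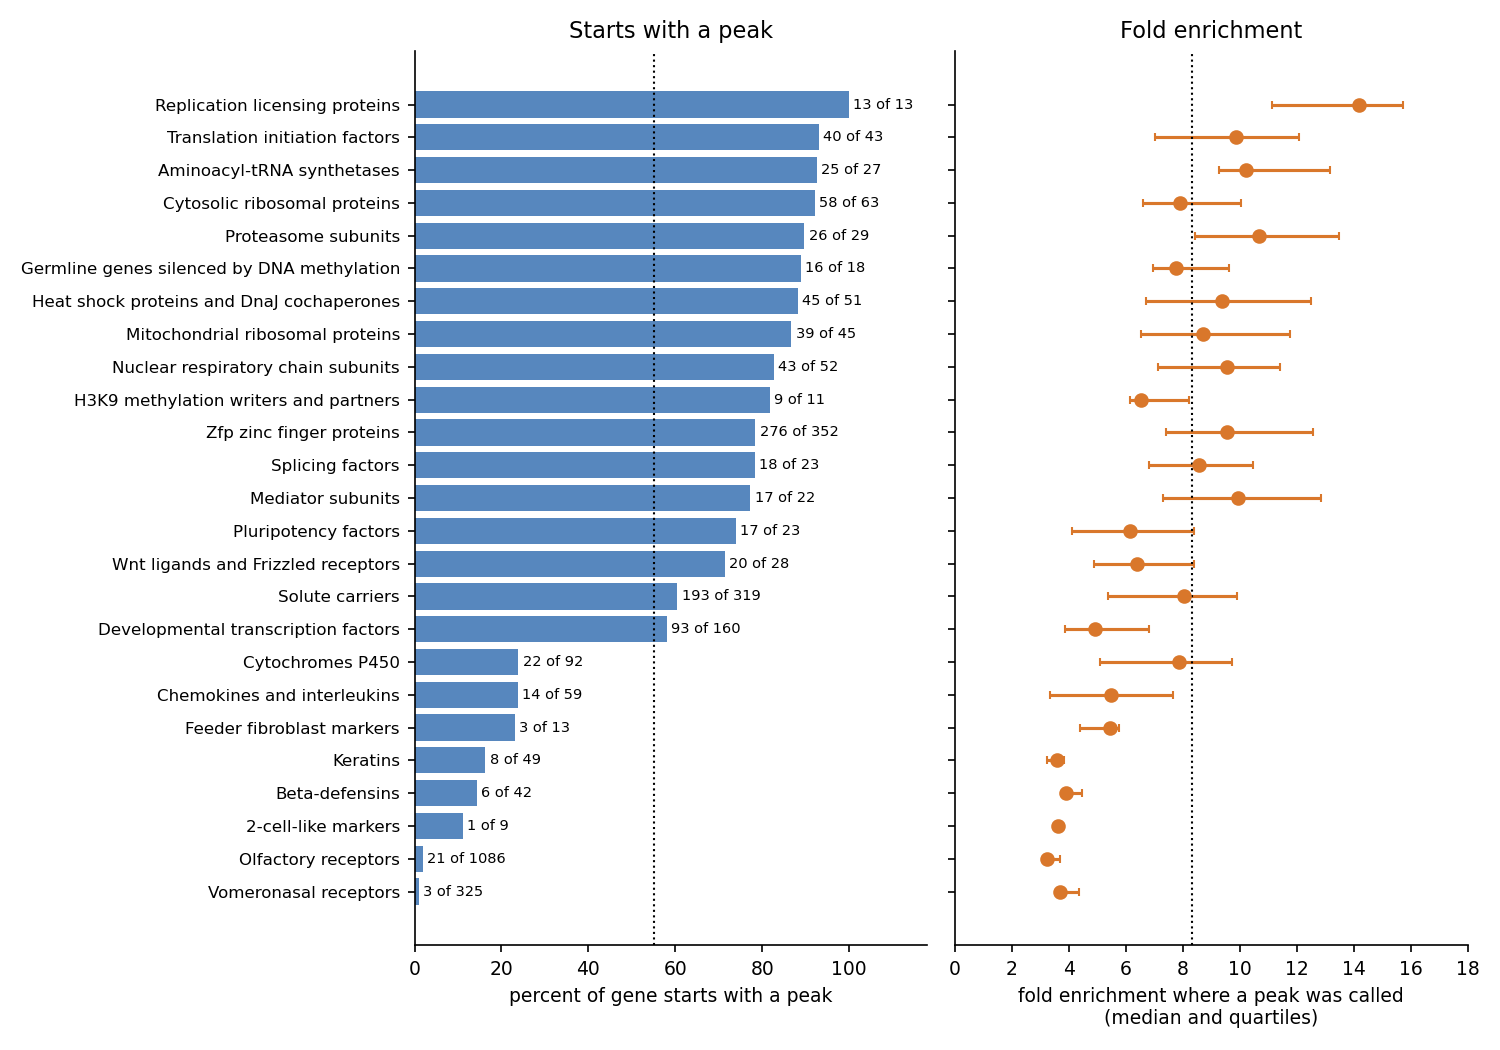
For each list of genes, the percent of starts with a peak (left, bars from 0, with counts) and the fold enrichment where a peak was called (right, median and quartiles); dotted lines mark 55.1% and 8.33, the values over all 18486 starts and over those with a peak. Replication licensing proteins have the highest median, 14.2, and developmental transcription factors have a peak at 58.1% of starts with a median of 4.92.

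The labelled cell type was checked on its markers. Of 16 markers of mESCs, 12 had a peak at the start, with 588 fragments in all. Of 13 markers of fibroblasts, the feeder cells, 3 had one, with 31 fragments in all: Col5a2 (6.09), Thy1 (5.45) and Loxl1 (3.31). The defining collagens Col1a1, Col1a2 and Col3a1 had none. Of 9 markers of 2-cell-like cells on these chromosomes, Gm4340 had a peak, with 3.62 from 9 fragments (4.12 to 17.1), and Zscan4c, Zscan4d and Zscan4f had none. Of these starts, 9 of the 13 fibroblast markers and all 9 of the 2-cell-like markers were CpG-poor. The 3 fibroblast markers with a peak (23.1%) were at starts of intermediate CpG content, and none of the 9 CpG-poor ones had a peak. Twist2, at a CpG-rich start, had none either. Of the mESC markers, Sox2, Klf4, Klf2, Tfcp2l1, Utf1 and Tbx3 were at CpG-rich starts, and all had a peak. At CpG-poor starts, Pou5f1, Nanog and Dppa4 had a peak, while Esrrb, Fgf4 and Sall4 had none. At intermediate starts, Zfp42, Dppa5a and Lin28a had a peak and Tdgf1 had none. The marker sets thus differed in CpG class as well as in cell type. For the 2-cell-like markers the share with a peak, 11.1%, was near the 14.4% of all CpG-poor starts. The share of feeder cells in the samples was not tested.

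Pluripotency factors had a peak at 17 of 23 starts, with a median fold enrichment of 6.16 (quartiles 4.12 and 8.41) and 40 fragments. The strongest was Zfp42, known as Rex1, with 15.9 from 151 fragments (128 to 177) and a summit 186 bp upstream (chr8:43306780-43307437). Klf5 followed with 14.8 and 135 fragments (113 to 160), and then Stat3, the effector of LIF, with 12.4, Tfcp2l1 with 9.57, Tbx3 with 8.41, Klf2 with 7.71 and Utf1 with 7.16. Dppa4 had 6.53, Dppa2 6.16, Klf4 5.68 and Tcl1 5.00.

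The central factors had low values. Nanog had 4.12 from 40 fragments (28.6 to 54.5) over a background of 8.94 (chr6:122707109-122707728). Pou5f1, which encodes OCT4, had 2.83 from 17 fragments (9.90 to 27.2) over 5.36 (chr17:35505742-35506276). Sox2 had 2 peaks around its start: one 415 bp upstream with 5.22 from 42 fragments (30.3 to 56.8) and the one at 366 bp downstream described above. Prdm14 had 4.02, Lin28a 4 and Dppa5a 3.37. The backgrounds of Nanog, Dppa5a (8.80), Sox2 and Pou5f1 all exceeded the upper quartile of gene-start peaks, 4.16. Those of Prdm14 (2.98) and Lin28a (2.5) lay below it. High backgrounds were not limited to peaks of low fold enrichment: they were 8.58 at Zfp42, 8.18 at Klf5 and 9.64 at Klf2. The median background of the list was 5.36. The starts of Nanog and Pou5f1 were CpG-poor, a class with a median fold enrichment of 4.82, while that of Sox2 was CpG-rich. No summit lay within 500 bp of the annotated starts of Nr5a2, Dnmt3l, Esrrb, Sall4, Fgf4 or Tdgf1. The rule uses the outermost annotated start of a gene, so an inner start of these genes was not covered.

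In the list of H3K9 methylation genes and partners, 9 of 11 starts had a peak, with a median of 6.53 (quartiles 6.16 and 8.21). This list also counts Dppa4 (6.53) and Dppa2 (6.16), named above among the pluripotency factors. The study describes their products as activators that EHMT2 counteracts, not as partners in H3K9 methylation. The values of Dppa4 and Dppa2 are the median and the lower quartile. Ehmt1, the partner of EHMT2, had 8.33 from 32 fragments (21.9 to 45.2) with a summit 106 bp upstream (chr2:24918895-24919994). Suv39h2 had 10, Setdb1 8.21, the EHMT partner Wiz 7.88, the heterochromatin protein gene Cbx1 6.25 and Zfp462 5.20. Cdyl had 3.24 from 6 fragments (2.202 to 13.1). No peak was called at Zfp644 or Atf7ip. Ehmt2, the tagged gene, was among 5 genes of the list that were left out, since a protein-coding start on the opposite strand lies 204 bp away.

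Germline genes that DNA methylation silences in somatic cells had a peak at 16 of 18 starts, with a median of 7.78 (quartiles 6.95 and 9.63) and 20 fragments. Of the 18 starts, 14 were CpG-rich, a class with a peak at 91.0% of starts, and 13 of these 14 had one. The median at these CpG-rich starts was 7.52, against 9.07 over all CpG-rich starts with a peak. Zpbp2, a sperm protein, had 11.1, Tex19.1 10, Piwil2 9.69 and Ddx4, the germline helicase known as VASA, 9.62. Of the synaptonemal complex genes, Sycp3 had 7.52, Sycp1 7.27 and Sycp2 7.14. Tdrd1 had the lowest value, 3.15, and Dazl and Tex101 had no peak. The peaks were narrow, 844 bp in the median.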

How the data were processed

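ATAC-seq was made on 2 samples of 50000 cells with a Nextera Tn5 protocol. After joining technical replicates, the authors used BBMap for trimming and STAR 2.7.10 for alignment to mm10 (reads with several places were put at 1 best place, ties at random). They removed duplicates with Picard 2.26.0 and ENCODE High Signal Regions with SAMtools 1.14, made fragments with bedtools 2.30.0, shifted them for the Tn5 cut and called peaks with MACS2 2.2.6 at q < 0.05 on both clones together. The deposited fold enrichment is the ratio that MACS2 wrote for the authors, pileup plus 1 over local background plus 1 at the summit. The deposited −log10 p-value and −log10 q-value are those of the summit. Starts and summit offsets are given counting from 1.

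From fold and p-value, the fragment number and background of each summit were calculated back by the Poisson formula of MACS2. Only whole fragment numbers were tried. For all 10089 gene-start peaks the best of them gave a value within 0.001 of the deposited −log10 p-value. On 2000 simulated peaks made with the same formula, 100% were recovered, which checks the calculation and not the deposited values. Totals of reads per sample were not analysed here.

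Gene starts were those of GENCODE vM21, an earlier release than the study used, on GRCm38 sequence from RefSeq. Each peak went to its nearest start. GC content, CpG ratio and motifs were read from the reference with NumPy 2.4.6 and SciPy 1.17.1 under Python 3.11.15. Named peaks are the 10 of highest fold, 5 widest, 5 with most fragments and 5 of lowest fold. Each gene list gave up to 3 highest members and the lowest, and the pluripotency, H3K9 and marker lists all members. Of these, 2 genes are not reported here. The shown sequences come from the peak of highest fold holding each motif upstream, outside exons. Further genes of the germline list were named after their values were seen. Members, lists and motifs were chosen with earlier results of these data known. No p-value was computed. Alternatives were limits on q-value, fragments and distance, kept opposite-strand starts, transcript starts, the strongest peak per start, no chromosome 8, fold without pseudocount and GC content at the summit.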

Additional observations from a re-analysis of the deposited data

How the results depend on the processing

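Of 93 values recomputed for 11 results, 79 stayed within 1.5 times the reported value with the same sign. The median summit position of 26 bp became 16 bp with a −log10 q-value of at least 10, 17 bp for summits within 250 bp, 13 bp with at least 20 fragments and −6 bp for the 12582 peaks chosen by transcript starts. The rank correlation of fold enrichment and GC content, 0.045, became −0.11 with a −log10 q-value of at least 10 and −0.13 with at least 20 fragments. It became 0.025 within 250 bp, 0.088 within 1000 bp, 0.10 from transcript starts and 0.12 with GC content taken at the summit. The ratio of the CpG-rich to the CpG-poor median, 1.88, became 1.18 under either limit on weak peaks (q-value or fragments). The ratio of gene-start peaks to other peaks, 2.25, became 1.138 and 1.12. Both limits remove weak peaks, which are most of the peaks at CpG-poor starts and away from starts. No paired analysis was possible because the peaks were called on the pooled clones. Intervals cover counting error only, and a peak of 6 to 8 fragments is close to the lowest fragment number at which any peak on chromosomes 1 to 19 was called, 6. A start without a peak had no peak detectable at this depth, which does not show that it was closed.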

Other observations

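Width and fold enrichment of gene-start peaks rose together only up to a point. Peaks under 500 bp wide had a median fold enrichment of 3.70 (642 peaks), those of 750 to 1000 bp 9.46 (2691 peaks) and those of 1000 to 1250 bp 9.49 (2411 peaks). It then fell to 7.77 at 1500 to 2000 bp (1074 peaks) and 6.91 from 2000 bp up (200 peaks). The fragments hardly fell, with medians of 37, 36 and 38 from 1000 to 1250 bp, 1500 to 2000 bp and 2000 bp up, while the background rose from 2.98 to 3.65 and 4.51.

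The share of starts with a peak differed between chromosomes, from 42.3% on chromosome 14 and 43.3% on chromosome 7 to 67.3% on chromosome 12. The median fold enrichment ran from 7.32 on chromosome 19 and 7.55 on chromosomes 11 and 17 to 9.24 on chromosome 16. The median width ranged from 971 bp on chromosome 7 to 1069 bp on chromosome 1.

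Peaks at genes with a single annotated transcript start had a median fold enrichment of 7.87 (3361 peaks) and those at genes with several 8.49 (6699 peaks). Their summits lay 117 bp from the gene start in the median in both sets.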
